A study of Mus musculus with 8 samples.

Results

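10 genes read as targets of BMP signalling were followed in differentiating cultures of muscle stem cells (satellite cells) from mice lacking Dnmt3a and from wild-type (WT) littermates. They were the Id genes Id1, Id2, Id3 and Id4, the receptor-regulated Smads Smad1 and Smad9, the inhibitory Smads Smad6 and Smad7, the decoy receptor gene Bambi and the transcription factor gene Atoh8. All 10 were found by gene name among 31732 genes of the array, on 11 of 39429 probes, each probe present as 1 of 43020 spots. Of the 10, 9 were well above background on at least 4 of the 8 arrays and were tested with 19655 genes in all. Bambi was not.

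The WT group and the Dnmt3a-KO group were male mice of 8 weeks, per the labels, matched as littermates. Cells of a fast muscle of the lower hindlimb (EDL, extensor digitorum longus) were grown for 5 days, replated at equal number and moved to differentiation medium, in which their progeny fuse into myotubes. A 1-colour array was run for either genotype after 2, 4, 5 and 6 days in that medium, so each genotype had 4 arrays and no genotype and day was repeated. The product of Dnmt3a places new methyl groups on DNA. The allele, and any Cre that drives its deletion, are not given in the sources used here, and neither is the number of animals behind an array. Whether each day had a culture or animals of its own is likewise not given, so the p-values rest on day-to-day scatter alone, which may be technical.

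BMP ligands, to which Gdf5 and Gdf7 belong, bind receptor kinases that phosphorylate Smad1, Smad5 and Smad9. These enter the nucleus with Smad4 and switch on the Id genes and their own inhibitors Smad6 and Smad7, which is why these genes are used as a readout of the pathway. Id proteins bind E proteins and keep them from pairing with MyoD, and in myoblast cultures BMP is known to hold back differentiation. Gdf5 is known in muscle as a BMP ligand that rises on denervation and limits atrophy. The question for these arrays was whether the targets were higher where the Gdf5 signal was higher.

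Signals are given as log2 of the processed spot signal over the array's 75th percentile, so that 0 is the 75th percentile and 1 unit is a doubling. They show where 1 probe stands on 1 array against another and are not compared between probes. The 75th percentile lay between 719.5 and 1528.1 intensity units, and 61.6% to 67.4% of spots were well above background. Both day 2 arrays were on a slide, scanner and software version of their own. They also differed in sex-linked transcripts: the Y-linked genes Uty, Kdm5d, Eif2s3y and Ddx3y gave signal well over background on the 2 arrays of day 2 but on 0 of 6 from days 4 to 6, and Xist, read by a pair of probes, did so on those 6 but on 0 of the day 2 pair. The label is male for every array. Day 2 therefore differs from days 4 to 6 in slide, scanner and sex-linked RNA, and values are given with and without it. Days 4 and 5 shared a slide and day 6 was on another, so values without day 2 still span a change of slide. All 7 measured skeletal muscle markers (Pax7, Myod1, Myog, Des, Ckm, Actn2 and Tnnt3) were well above background. In these bulk cultures, fewer cells of a type and less RNA per cell cannot be told apart.

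Dnmt3a itself, the deleted gene, had log2 signals of -0.95, 1.41, 1.32 and 1.02 in WT and -2.06, -0.93, -0.88 and -1.36 in Dnmt3a-KO on days 2, 4, 5 and 6. It was lower in Dnmt3a-KO on each day, with differences of -1.11 on day 2 and of -2.34, -2.21 and -2.39 on the later days. Whether its probe lies in the deleted part was not tested. The mean difference was -2.01 ± 0.60 (SD over 4 days; limma adjusted p = 0.101), and without day 2 it was -2.31 ± 0.09 (3 days; limma adjusted p = 0.0499, when 0.0153% of all genes and no member passed).

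The ligand Gdf5 stood apart between genotypes on every day. Its log2 signals were -3.13, -0.59, -0.46 and -0.62 in WT and -0.23, 1.98, 1.25 and 1.82 in Dnmt3a-KO on days 2, 4, 5 and 6. The lowest Dnmt3a-KO array lay above the highest WT array. The difference was 2.899, 2.57, 1.71 and 2.45 on the 4 days. Its mean was 2.41 ± 0.50 (SD, 4 days), or 5.30-fold with a limma 95% interval from 3.71-fold to 7.55-fold, and the adjusted p over 19655 genes was 0.0662. Without day 2 the mean was 2.24 ± 0.47 (3 days; limma adjusted p = 0.144). A second Gdf5 probe differed by 2.38, 2.754, 1.94 and 2.599 on days 2, 4, 5 and 6, with a mean of 2.42 ± 0.35. Gdf7, a close relative of Gdf5, was higher by 1.93 ± 0.37 (limma adjusted p = 0.0662) on its brighter probe, and by 2.02 ± 0.39 without day 2, while its other probe was near the floor. With 4 days and 1 array per group, 2 of 19655 genes passed the adjusted threshold of 0.05 (Gm3866 and Myh6, 0.0102%), so a missed threshold sets little limit here and the intervals are given with each mean.

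The Id genes did not follow Gdf5 as a group. Id1, the classical immediate target of BMP-activated Smads, had log2 signals of 3.16, 3.26, 3.24 and 3.34 in WT and 3.64, 3.25, 3.08 and 3.26 in Dnmt3a-KO. The WT arrays lay between 3.16 and 3.34, and only the Dnmt3a-KO array of day 2 stood above them. The difference was 0.48 on day 2 and -0.01, -0.16 and -0.08 on days 4, 5 and 6. With quantile or median scaling the day 4 difference was 0.04. The mean difference was 0.06 ± 0.29 (SD, 4 days), with a limma 95% interval from 0.833-fold to 1.30-fold and an adjusted p of 0.865. Without day 2 it was -0.08 ± 0.08 (3 days; limma adjusted p = 0.666). The upper end of the Id1 interval lay below the lower end of the Gdf5 interval of 3.71-fold. These are RNA folds of a target and of a ligand. Gdf5 protein and Smad phosphorylation were not measured, so the comparison does not show whether Id1 responded.

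Id3, which acts on E proteins like Id1, is read by a probe that crosses a splice junction: its 60 bases span 175 bases of mm9 chr4:135700075-135700249 on the plus strand, with 115 bases between its parts. It is printed because it reports spliced Id3 RNA.
Id3 probe: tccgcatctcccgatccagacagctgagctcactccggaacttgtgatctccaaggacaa
The log2 signals of Id3 were 3.22, 3.03, 2.92 and 3.01 in WT and 3.45, 2.72, 2.82 and 2.64 in Dnmt3a-KO. On day 2 Id3 was the higher in Dnmt3a-KO, by 0.23, and on days 4, 5 and 6 the lower, with differences of -0.31, -0.10 and -0.37. The mean was -0.14 ± 0.27 (SD, 4 days; limma 95% interval 0.736-fold to 1.12-fold; adjusted p = 0.646). On days 4 to 6 alone the 3 Dnmt3a-KO arrays all lay below the 3 WT arrays, which held for 8.26% of all genes tested. The mean was then -0.26 ± 0.14 (3 days; limma adjusted p = 0.382). On days 4, 5 and 6 the median difference of the fibro-adipogenic or fibroblast markers was -1.0, 0.26 and -0.922. That of the smooth muscle or pericyte markers was -0.53, -0.183 and -0.547. It was -0.236, -0.126 and -0.134 for skeletal muscle and -0.195, -0.0484 and -0.254 for macrophage or leukocyte. For endothelial it was -0.346, -0.291 and 0.118, and for Schwann or nerve -1.79, 0.127 and 0.143. Within the fibroblast list on day 4, Dcn (0.87) and Pdgfra (0.07) were higher, and Col1a1, Col3a1, Ly6a and Pi16 were lower. The part of these markers in the Id3 value was not tested.

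Id2 was the member of the Id group with the same sign on each day. Its log2 signals were 1.54, 0.16, -0.11 and 0.50 in WT and 1.78, 0.71, 0.28 and 0.82 in Dnmt3a-KO. Each Dnmt3a-KO array was above the WT array of its day, while the groups overlapped across days. The differences were 0.24, 0.56, 0.39 and 0.32, with a mean of 0.38 ± 0.13 (SD, 4 days) and a limma 95% interval from 1.13-fold to 1.49-fold. The unadjusted p was 0.00476 and the adjusted p 0.226 (limma). Without day 2 the mean was 0.42 ± 0.12 (3 days).

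Id4 was near its WT level on 3 days and far above it on 1. The log2 signals were -2.10, -1.92, -1.76 and -2.34 in WT and -0.12, -2.26, -1.94 and -2.27 in Dnmt3a-KO. The day 2 Dnmt3a-KO array was the high one, by 1.98 over its WT partner, and the later differences were -0.34, -0.18 and 0.07. At day 2, 1.89% of all genes tested were at least 2-fold higher in Dnmt3a-KO (1.14% lower), and Id4 was the 1 member among them. The mean of 0.38 ± 1.08 (SD, 4 days; limma 95% interval 0.628-fold to 2.71-fold; adjusted p = 0.72) rested on that array, and without day 2 it was -0.15 ± 0.21 (3 days). Over the lists of cell type markers, the median day 2 difference was 0.75 for smooth muscle or pericyte, 0.35 for Schwann or nerve, 0.29 for fibro-adipogenic or fibroblast, 0.09 for endothelial and for skeletal muscle, and 0.02 for macrophage or leukocyte. Summed signals, as multiples of the 75th percentile, were 127 in WT and 125 in Dnmt3a-KO for smooth muscle or pericyte markers and 6.63 and 6.12 for fibroblast markers on that day. These sums follow their brightest probe: Acta2 had a log2 signal of 6.91 and 6.87 on day 2 and Col3a1 of 2.59 and 2.32, while the dimmer Pdgfrb differed by 2.16, Cnn1 by 1.95, Cspg4 by 1.54, Rgs5 by -0.33, Col1a1 by 2.25, Pdgfra by 1.41, Ly6a by -0.25 and Pi16 by -0.36. Cnn1 and Pdgfra were at the floor of -7.03 in WT on day 2, so the size of their differences rests on that floor. Of the remaining markers, Notch3, at 2.53 in WT, differed by -0.07 and Dcn by 0.82, while Myh11 was at the floor on both day 2 arrays. Over all 4 days the smooth muscle or pericyte sum, with 6 of 7 markers well above background, ranged from 118 to 155 in WT and from 105 to 125 in Dnmt3a-KO. The fibroblast sum, with 6 of 7 (Lum on no array), ranged from 6.63 to 30.5 and from 4.96 to 33.6, and the endothelial sum, with 5 of 8 (Tek and Tie1 on no array), from 2.35 to 4.09 and from 2.5 to 3.98. The macrophage sum, with 6 of 7 (Cd68 on no array), ranged from 10.3 to 20.8 in WT and from 8.87 to 21.2 in Dnmt3a-KO, and the Schwann sum, with 6 of 6, from 0.40 to 1.34 and from 0.401 to 0.898. The part of these markers in the Id4 value was not tested.

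**Figure D1:**
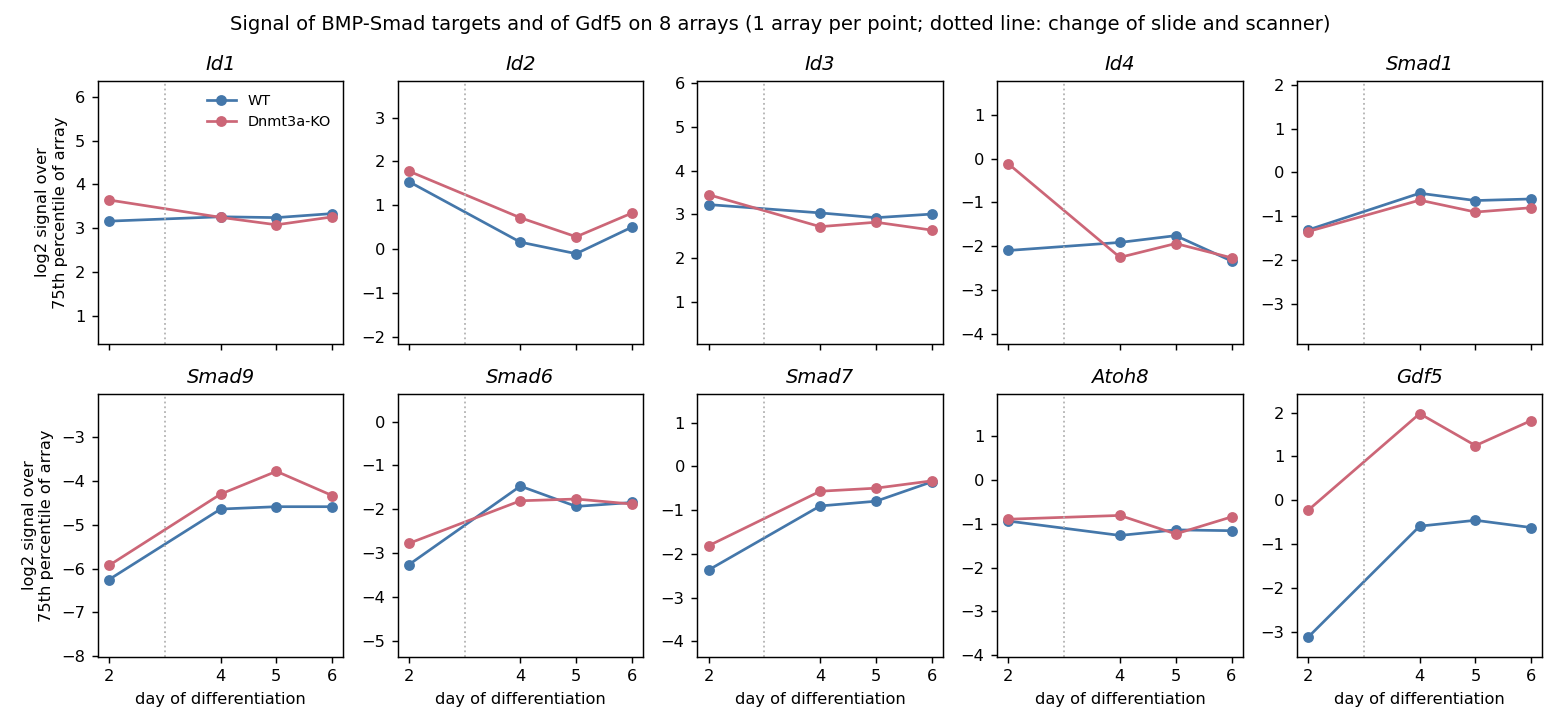
Log2 signal over the array's 75th percentile (y axis, a span of equal size in every panel) against the day of differentiation (x axis) for 9 BMP-Smad targets and Gdf5, with 1 array per point, WT in blue and Dnmt3a-KO in red. The Gdf5 lines are apart on every day. Those of the targets are at most 0.81 apart on any day, other than Id4 on day 2. The dotted line marks the change of slide and scanner between day 2 and day 4, and day 6 was on a further slide.

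Promoter windows of 280 bases, from 250 before the RefSeq start site to 30 from it on (GRCm38.p6), were read for the 7 members that the table holds: Id2, Id3, Id4, Smad1, Smad6, Smad9 and Atoh8. They held 19 to 38 CpG dinucleotides, against a median of 6 over 32851 windows, and ranked from the 74.9th to the 96.4th percentile. These CpG counts bear on a methyltransferase knockout only as a description, since no methylation was measured. The letters GGCGCC, known as a site that BMP-activated Smads can bind, were in 3 of the 7 windows (Id2, Id4 and Smad9) and in 10.9% of all windows. These shares are not matched for base composition: GGCGCC is all G and C and holds a CpG. The member windows had 60.7% to 74.3% G and C, against a median of 52.5% over all windows. The palindrome GTCTAGAC, which holds the Smad-binding letters GTCT and AGAC, was in 1 of 7 (Smad6, across the start site from base -4 to 4) and in 0.192% of all windows. GTCTG was in 1 of 7 (Id3, at 2 places) and in 46.8% of all, and the E-box CANNTG in 4 of 7 (Id2, Smad6, Smad9 and Atoh8) and in 70.1% of all; both strands were searched, and the motifs did not overlap in these windows. The 4 windows with GGCGCC or GTCTAGAC are printed with those letters in capitals, so that they can be read beside the signals: Id2 lies at chr12:25096063-25096342 on the minus strand, Id4 at chr13:48260866-48261145 on the plus strand, Smad9 at chr3:54755332-54755611 on the plus strand and Smad6 at chr9:64022030-64022309 on the minus strand.
Id2: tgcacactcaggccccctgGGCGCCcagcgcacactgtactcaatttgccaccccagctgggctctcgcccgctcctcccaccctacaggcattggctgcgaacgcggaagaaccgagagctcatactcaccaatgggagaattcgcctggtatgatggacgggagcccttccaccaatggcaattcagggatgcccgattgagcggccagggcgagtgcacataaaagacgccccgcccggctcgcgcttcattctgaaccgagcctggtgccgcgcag
Id4: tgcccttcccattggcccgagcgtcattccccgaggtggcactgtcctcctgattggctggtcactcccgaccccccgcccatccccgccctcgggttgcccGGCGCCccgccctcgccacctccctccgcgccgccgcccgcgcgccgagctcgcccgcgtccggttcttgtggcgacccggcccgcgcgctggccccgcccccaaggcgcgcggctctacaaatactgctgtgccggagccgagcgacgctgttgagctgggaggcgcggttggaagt
Smad9: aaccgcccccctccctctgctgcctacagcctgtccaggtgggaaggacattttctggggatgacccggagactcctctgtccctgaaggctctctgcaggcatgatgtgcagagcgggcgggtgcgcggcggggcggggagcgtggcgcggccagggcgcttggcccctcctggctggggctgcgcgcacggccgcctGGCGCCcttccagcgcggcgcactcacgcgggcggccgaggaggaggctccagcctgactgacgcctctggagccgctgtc
Smad6: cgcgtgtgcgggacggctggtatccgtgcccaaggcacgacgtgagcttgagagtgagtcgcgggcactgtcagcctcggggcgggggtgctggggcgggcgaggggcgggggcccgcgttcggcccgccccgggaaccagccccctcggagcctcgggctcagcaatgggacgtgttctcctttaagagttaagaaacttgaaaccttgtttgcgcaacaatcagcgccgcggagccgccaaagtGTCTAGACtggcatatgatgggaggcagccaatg
The genes with GGCGCC differed among themselves: Id2 and Smad9 were higher in Dnmt3a-KO on 4 of 4 days and Id4 on 2. A match describes letters only.

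The receptor-regulated Smads, which carry the BMP signal into the nucleus, parted in direction. Smad9 is itself a transcriptional target of BMP signalling. Its log2 signals were -6.25, -4.64, -4.59 and -4.59 in WT and -5.93, -4.30, -3.78 and -4.33 in Dnmt3a-KO. Each Dnmt3a-KO array was above the WT array of its day, and on days 4 to 6 the groups did not overlap, with Dnmt3a-KO higher, which held for 7.51% of all genes tested. The differences were 0.32, 0.34, 0.81 and 0.25, with a mean of 0.43 ± 0.25 (SD, 4 days; limma 95% log2 interval 0.14 to 0.72, up to 1.65-fold; unadjusted p = 0.012, adjusted p = 0.296). Without day 2 the mean was 0.47 ± 0.30 (3 days; limma adjusted p = 0.347). The probe is dim, and with a normexp background correction and quantile scaling the mean was 0.08.

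Smad1 was read by a pair of probes that gave like differences. On the brighter probe the differences were -0.04, -0.16, -0.26 and -0.20, with a mean of -0.16 ± 0.10 (SD, 4 days; limma 95% interval 0.788-fold to 1.01-fold; adjusted p = 0.417). The signal ranged from -1.32 to -0.48 in WT and from -1.35 to -0.63 in Dnmt3a-KO, lowest on day 2 in both genotypes. Without day 2 the mean was -0.21 ± 0.05 (3 days; limma adjusted p = 0.395). The second probe differed by -0.16 ± 0.06. Smad1 was thus lower on each day while Smad9 was higher, and the day 2 difference of Smad1 turned to 0.01 with normexp.

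Of the inhibitory Smads, which block the receptors or compete with the signalling Smads, Smad7 had the same sign on each day and Smad6 did not. Smad7, which acts on BMP and TGF-beta receptors, had log2 signals of -2.37, -0.90, -0.80 and -0.35 in WT and -1.81, -0.57, -0.50 and -0.33 in Dnmt3a-KO. The differences were 0.55, 0.34, 0.30 and 0.02 on days 2, 4, 5 and 6, so that the genotypes were level on day 6. With normexp the day 6 difference was -0.01. The mean was 0.30 ± 0.22 (SD, 4 days; limma 95% interval 1.03-fold to 1.48-fold; unadjusted p = 0.0308, adjusted p = 0.346), and without day 2 it was 0.22 ± 0.17.

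Smad6, which acts mainly on the BMP branch, had log2 signals of -3.27, -1.47, -1.94 and -1.85 in WT and -2.78, -1.81, -1.77 and -1.88 in Dnmt3a-KO. It was the higher in Dnmt3a-KO on days 2 and 5, by 0.49 and 0.17, and the lower on days 4 and 6, with differences of -0.34 and -0.04. The mean was 0.07 ± 0.35 (SD, 4 days; limma 95% interval 0.813-fold to 1.36-fold; adjusted p = 0.854), and without day 2 it was -0.07 ± 0.25.

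Atoh8, a bHLH factor gene induced by BMP in other tissues, ranged from -1.26 to -0.93 in WT and from -1.23 to -0.81 in Dnmt3a-KO, and the groups overlapped. Its differences were 0.04, 0.46, -0.09 and 0.31, those of days 2 and 5 within 0.01 of 0 with median scaling, with a mean of 0.18 ± 0.25 (SD, 4 days; limma 95% interval 0.928-fold to 1.38-fold; adjusted p = 0.552), and without day 2 it was 0.23 ± 0.29. Bambi encodes a receptor-like protein without a kinase that dampens BMP and TGF-beta signals. Its 1 probe was not well above background on any of the 8 arrays, and no fold is given.

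**Figure D2:**
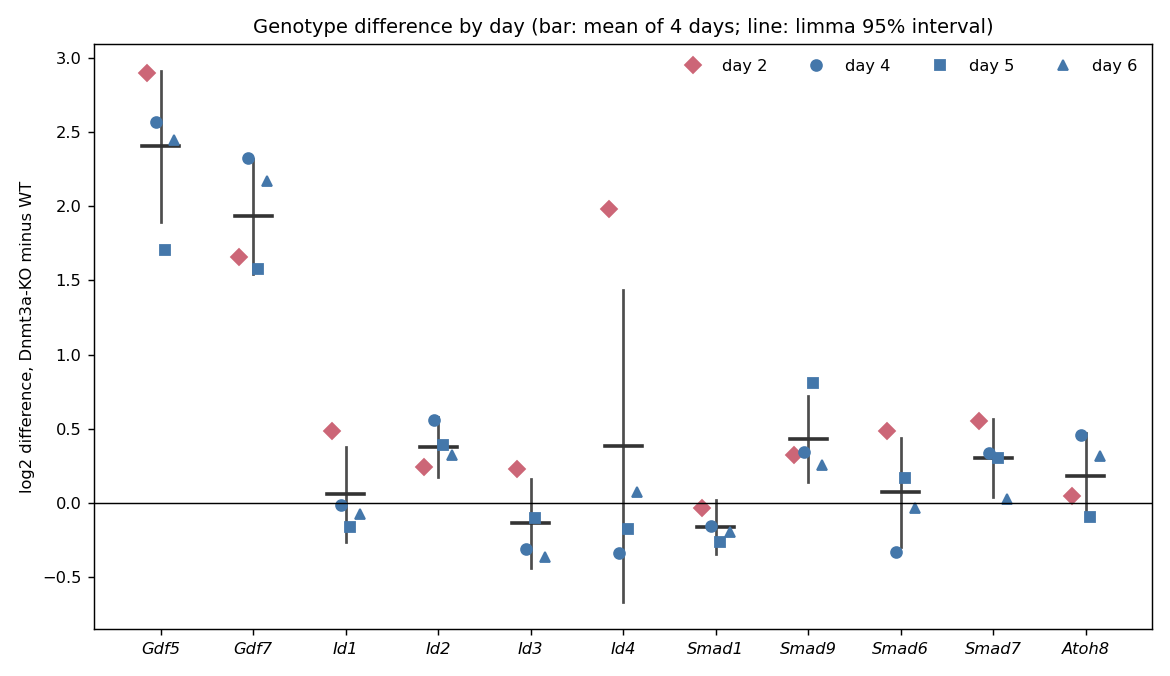
Log2 difference, Dnmt3a-KO minus WT (y axis), for Gdf5, Gdf7 and 9 BMP-Smad targets (x axis), with 1 symbol per day, a bar at the mean of 4 days and a line for the limma 95% interval. The Gdf5 and Gdf7 intervals start at 1.89 and 1.54, and the member intervals other than that of Id4 end at or below 0.72.

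Set together, none of the 9 measured targets passed the adjusted threshold for genotype, against 0.0102% of all genes tested. At an unadjusted p under 0.05 there were 3 (Id2, Smad7 and Smad9, all higher), or 3 of 9, beside 12.9% of all genes in either direction and 6.17% in the direction of higher in Dnmt3a-KO. Without day 2 there were again 3, beside 12.9% of all genes in either direction in that fit. Smad7 was then not among them (unadjusted p = 0.095, limma) and Id3 was, as lower (unadjusted p = 0.0467), with Id2 and Smad9 higher. Id2, Smad7 and Smad9 were also the members higher on 4 of 4 days, where 10.9% of all genes were, and Smad1 was the 1 member lower on 4 of 4 days, where 11.5% were. No member had groups that did not overlap across all 8 arrays with Dnmt3a-KO higher, as Gdf5 did; 0.941% of all genes did, and 0.773% with Dnmt3a-KO lower. The median of the members' mean differences was 0.18, beside -0.01 over all genes tested.

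The days differed. On day 2, 8 of 9 members were higher in Dnmt3a-KO, with a median difference of 0.32, beside 51.6% of all genes and a median of 0.01; the exception was Smad1. On day 4 it was 4 of 9 with a median of -0.01, beside 47.3% of all genes. On day 5 it was 4 of 9 with a median of -0.09, beside 40.8%, and on day 6 it was 5 of 9 with a median of 0.02, beside 54.4%. Under the other scalings and the deposited score the day 2 count was 7 to 9 and the later counts 4 or 5. No member was 2-fold apart on day 4, 5 or 6, when 1.46%, 0.916% and 1.3% of all genes were at least 2-fold higher in Dnmt3a-KO and 3.07%, 1.82% and 1.88% at least 2-fold lower. Whether the difference changed with day was tested as an interaction of genotype and day: no gene of 19655 passed the adjusted threshold in limma, 4.17% had an unadjusted p under 0.05, and no member was among them. The lowest unadjusted interaction p of a member was 0.0579, for Id4.

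**Figure D3:**
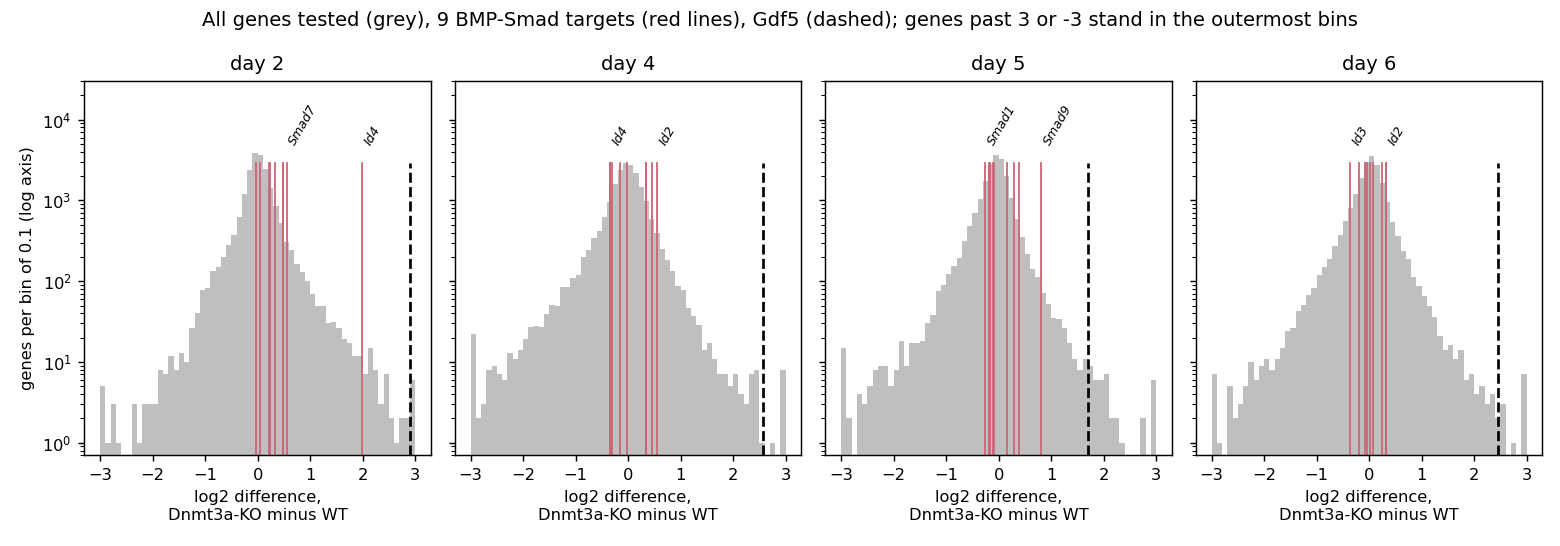
Number of genes per bin of log2 difference, Dnmt3a-KO minus WT (x axis; log y axis), over all genes tested on each day, with 9 BMP-Smad targets as red lines and Gdf5 as a dashed line. The targets lie within 0.81 of 0 apart from Id4 on day 2 at 1.98, while Gdf5 lies between 1.71 and 2.899.

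Beside the Gdf5 difference of each day, the member differences did not all have 1 order. The day on which Gdf5 differed most was day 2 on its brighter probe and day 4 on its second probe and with normexp, and day 5 was the lowest in each case. With the scaling used here, Id1, Id3, Id4, Smad6 and Smad7 had their highest difference on day 2, at 0.48, 0.23, 1.98, 0.49 and 0.55. Smad1 was also highest there, at -0.04. Day 2 had its own slide, scanner and sex-linked RNA as well, and their part was not tested. Id2 and Atoh8 were highest on day 4, at 0.56 and 0.46. On day 5 Smad9 had its largest difference, 0.81, while Id1, Smad1 and Atoh8 had their lowest, at -0.16, -0.26 and -0.09. On day 2 Id2 had its smallest difference, 0.24 (with normexp the smallest was 0.18, on day 5), and Id1 its largest, 0.48. The 8 arrays fall into 2 genotypes of 4 that did not overlap in Gdf5 signal, and within each genotype day 2 was the lowest. No correlation over 8 arrays is therefore given.

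Over the days, 4 members passed the test of a day slope: Smad7 rose by 0.43 log2 units per day (limma adjusted p = 0.00939), Smad9 rose by 0.44 (adjusted p = 0.0165), Smad6 rose by 0.29 (adjusted p = 0.0411) and Id2 fell by 0.30 (adjusted p = 0.0462). Of all genes tested, 25.9% rose and 19.5% fell, 45.4% in all, so 4 of 9 members is close to that share. Id3 had a slope of -0.13 (adjusted p = 0.051), Smad1 of 0.15 (adjusted p = 0.0618), Id4 of -0.27 (adjusted p = 0.118), Id1 of -0.04 (adjusted p = 0.501) and Atoh8 of -0.04 (adjusted p = 0.506). The slopes rest on day 2: over days 4 to 6 no gene of 19655 passed in limma, 8% had an unadjusted p under 0.05, and Smad7 was the 1 member among them with a slope of 0.20 (unadjusted p = 0.0291, adjusted p = 0.587). Without day 2 the slope of Id2 was 0.11, of Smad6 -0.11 and of Smad9 0.01. Without day 5 none of the 4 passed, while the slopes stayed near their size: -0.25 for Id2 (adjusted p = 0.118), 0.29 for Smad6 (0.12), 0.44 for Smad7 (0.0575) and 0.41 for Smad9 (0.0664). Without day 4 the slope of Id2 was -0.31 (adjusted p = 0.0515). The processing also ended calls: with normexp the slope of Smad9 was 0.06 (adjusted p = 0.0665) and of Smad6 0.12 (0.0606), and with a floor 4 times higher Smad9 was at 0.17 (0.073), Smad6 at 0.29 (0.0573) and Id2 at -0.30 (0.0647). With no filter on dim probes, Smad6 had an adjusted p of 0.0912 and Id2 of 0.101. Smad7 passed with normexp, the higher floor and no filter. Day 2 and the slide, scanner and sex-linked RNA cannot be told apart. Day 6 was on a slide of its own as well, so day and slide are also mixed over days 4 to 6.

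Of the other genes of the pathway, 84 of 107 listed were tested, none passed the adjusted threshold for genotype in limma and 19 of 84 had an unadjusted p under 0.05, beside 12.9% of all genes tested. The list of BMP ligands also holds Bmp1, which encodes a protease and not a ligand. Of the 8 genes tested in that list, 4 were higher on 4 of 4 days, beside 10.9% of all genes, and none was lower on 4. The 4 were Gdf5, Gdf7, Bmp2 by 0.999 ± 0.32 (limma adjusted p = 0.112) and Gdf6 by 0.39 ± 0.54, the latter mostly from 1.17 on day 2. The median of the 8 was 0.38, with Bmp1 at -0.28. The receptors that would read these ligands had a median of -0.03 over 12: the type II receptor gene Acvr2b was higher by 0.40 ± 0.15 and the co-receptor gene Hfe2 by 0.15 ± 0.14, while Bmpr1b, the preferred type I receptor of Gdf5, was lower with -0.48 ± 0.42 and the co-receptor gene Rgma with -0.29 ± 0.19. The list of antagonists, which bind BMP ligands outside the cell, also holds Tll1, which encodes a protease and not an antagonist. Among the 11 genes tested in that list, Tll1 included, the median was 0.02. Chrd, encoding chordin, was the 1 with the same sign on 4 days, at -0.17 ± 0.20. Of 13 other Smads and regulators, with a median of 0.06, Smad3 was higher by 0.21 ± 0.09 and the co-repressor gene Skil by 0.25 ± 0.21.

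The 13 other tested genes known to be induced by BMP in bone, heart or skin had a median of -0.11. The same sign on 4 days was seen in Gata3, higher by 0.73 ± 0.58, and Gata2, by 0.29 ± 0.24, and in Msx1, Hey1 and Dlx2, lower, with Msx1 at -0.37 ± 0.21 and Hey1 at -0.35 ± 0.15. The TGF-beta and activin targets, a readout of the other Smad branch, had a median of -0.24 over 16, and it moved between 0.50 on day 2 and -0.63 on day 4. Angptl4 was higher by 0.73 ± 0.47 and Acta2, smooth muscle actin, was lower with -0.26 ± 0.19.

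The list of E proteins and other bHLH partners held 4 genes higher and 3 lower on 4 of 4 days among 12 tested, beside 10.9% and 11.5% of all genes. The E protein genes Tcf3, Tcf4 and Tcf12, whose products pair with MyoD and are bound by Id proteins, were each lower on 4 of 4 days, with means of -0.21 ± 0.10, -0.20 ± 0.16 and -0.16 ± 0.07 (limma adjusted p = 0.349, 0.42 and 0.41). The higher ones were Myf6, a late myogenic factor gene, by 0.61 ± 0.42, Bhlhe40 by 0.43 ± 0.17, Bhlhe41 by 0.25 ± 0.20 and Hes6 by 0.24 ± 0.10. Myod1 differed by 0.03 and Myog by -0.02 on average, and Myf5 was not well above background on any array.

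**Figure D4:**
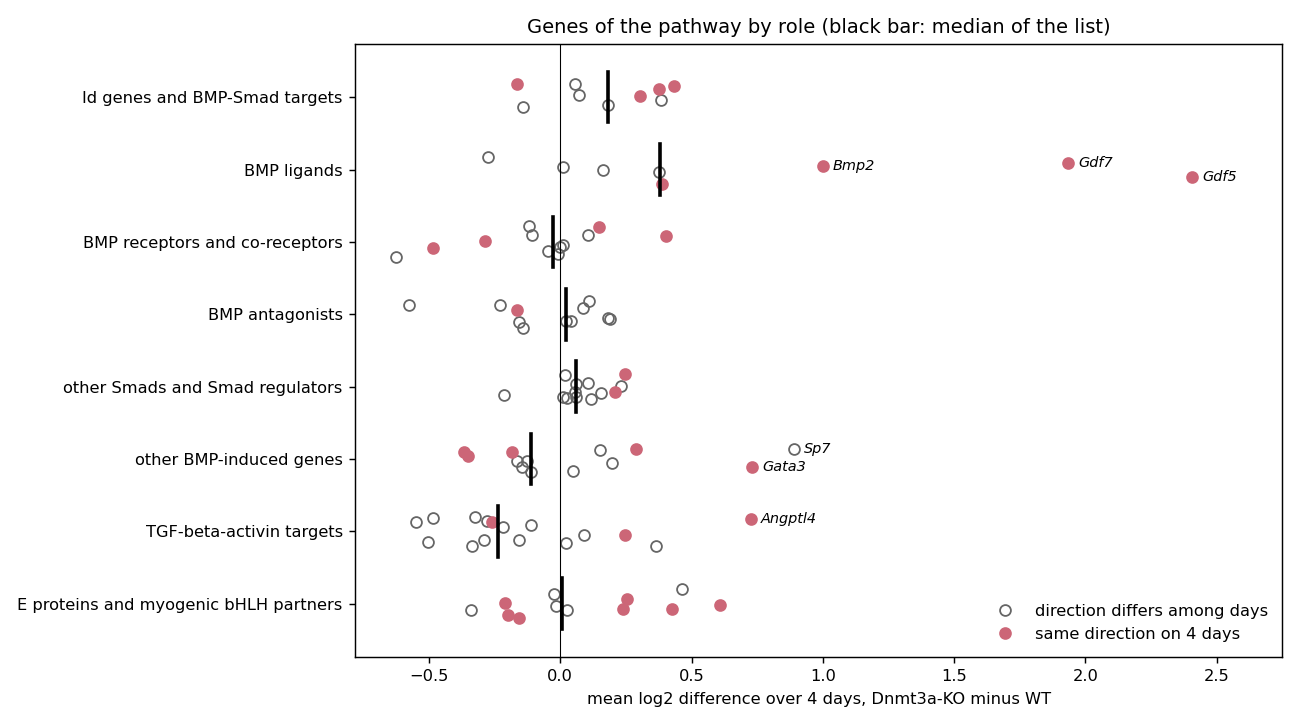
Mean log2 difference over 4 days, Dnmt3a-KO minus WT (x axis), for each tested gene of the BMP-Smad targets and of 7 lists by role (y axis), filled where the sign was the same on 4 days, with a black bar at the list's median. The medians lie between -0.24 and 0.38, and Gdf5, Gdf7 and Bmp2 lie furthest to the right.

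On the day slope, 35 of the 84 genes rose and 16 fell, beside 25.9% and 19.5% of all genes tested, and none passed over days 4 to 6. Of the ligands, Bmp8b, Bmp4, Bmp2, Gdf5, Gdf6 and Gdf7 rose, by 0.37 to 0.68 per day, and Bmp8a fell. Of the receptors and co-receptors, Hfe2, Acvr1 and Acvr2a rose and Acvr2b, Bmpr2, Rgmb and Rgma fell, with slopes from -0.48 to 0.32. Of the antagonist list, Fstl3, Fst, Bmper, the protease gene Tll1 and Grem1 rose, by 0.44 to 0.73 per day, and Nbl1 fell. Ppm1a, Smurf1, Zeb2 and Tob1 of the Smad regulators rose, by 0.13 to 0.33, and Ski and Smad5 fell. Of the other BMP-induced genes, Junb, Ifrd1, Msx2 and Fosb rose, by 0.21 to 0.28, and Sp7, Gata3, Gata2 and Dlx2 fell. The TGF-beta targets Col1a1, Ctgf, Ltbp2, Fn1, Angptl4 and Pmepa1 rose, by 0.27 to 1.40 per day, and no TGF-beta target fell. Twist2, Twist1, Bhlhe40, Bhlhe41 and Hes6 rose and Myod1, Tcf4, Tcf3 and Tcf12 fell, the latter with slopes from -0.33 to -0.30.

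The genes most like Id1 over the 8 arrays, by Pearson's r among 19655 genes, were 4930579K21 (r = 0.94), Tmem119 (0.926) and Krtap10-10 (0.919), and those most like Id3 were Wdr63 (0.987), the transcript ENSMUST00000058139 (0.983) and Cilk1 (0.979). These are the extremes of many genes over 8 arrays that share slides. None of the 6 is another member.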

How the data were processed

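Satellite cell RNA was labelled with Cy3 and read on 8 one-colour Agilent arrays of 1 design. Spot intensity was extracted by the authors with Agilent Feature Extraction, version 11.0.1.1 for the day 2 arrays and 9.5.3.1 for the other 6 per the file headers; the submitters' processing notes name 9.5 alone. The deposited value table holds a score per spot, which is proportional to the processed intensity within each array (the ratio to the scaled signal used here, in percent, was 1.033 to 1.047), with column medians of 6; its direction and scale are therefore known. Probe coordinates are mm9 per the file headers.

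The processed signal of the 43020 non-control spots was scaled to the 75th percentile of its array, values under 0.00763 (log2 of -7.03) were set to it, log2 was taken, flagged spots were left out and spots of a probe were averaged; 273 probes had no usable spot on some array. Of 39429 probes, 26055 took a RefSeq symbol by accession. The brightest probe of a gene was used. Linear models were fitted with limma 3.58.1 (lmFit, eBayes; R 4.3.3), and p-values were adjusted by Benjamini-Hochberg over 19655 genes well above background on at least 4 arrays and a threshold of 0.05. The genotype effect had day as a block (3 residual degrees of freedom, which also takes out the slide), the day slope had genotype as a covariate (5), and the interaction had 2. Single days have no test. The median SD between repeat spots of 1 array was 0.0656 to 0.156 (log2), and 8 arrays limit the precision. The steps were tested on simulated data. Alternatives covered scaling, background, filter, floor, probes, variance model, block, the deposited score and each day left out. Day here serves as the replicate, and numbers within a genotype only name arrays.

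The members and lists were chosen with earlier results of these data known. Named were all members, Gdf5, Gdf7 and Dnmt3a, up to 2 genes per list and direction with the largest mean difference of 1 sign on 4 days, list genes past a threshold, and the 3 genes most like Id1 and Id3. Other genes were named after their values were seen: Gm3866, Myh6, Myog and Myf5. The counts without overlap on days 4 to 6 were added after the values were seen. Member promoters were matched to RefSeq (GRCm38.p6) by symbol, 7 of 10, with windows on chromosome 18 left out. Some genes of the lists are counted but not reported by name here.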

Additional observations from a re-analysis of the deposited data

Results flagged for a closer look

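Sets of 4 log2 signals of 1 genotype, and of 4 daily differences, were searched for a value far from the other 3. Of 36 sets over the members, Gdf5, Gdf7 and Dnmt3a, 9 held one, 8 of these at day 2, and 5 of the 27 member sets did. The rule marks about 1 in 20 sets when the 4 values differ by chance alone. The values here come from different days, with day 2 on a slide and scanner of its own, so that rate does not apply as it stands. The share over all genes was not counted, and 5 of 27 is not read as particular to the members. The day 2 array lay far from the later 3 for Id4 in Dnmt3a-KO at -0.12 (high), for Smad6 in Dnmt3a-KO at -2.78 (low), for Smad7 in Dnmt3a-KO at -1.81 (low) and for Smad9 in WT at -6.25 (low). The same held in WT for Gdf5 at -3.13, Gdf7 at -4.67 and Dnmt3a at -0.95, all low. The Dnmt3a difference of day 2, -1.11, was nearer to 0 than on the other days. The Smad9 difference of day 5, 0.81, was above those of the other 3 days. Day 2 differs from the later days in slide, scanner, software version and sex-linked RNA, and what each contributes cannot be told apart.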

How the results depend on the processing

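No member passed the adjusted genotype threshold under any of 18 alternatives; the lowest adjusted p among members was 0.114, for Id2. Gdf5 passed under 6 of the 18, with a mean between 1.74 and 2.64 over all of them. The number of genes called for genotype, 2 in the report, was 0 with quantile scaling, median scaling, no filter on dim probes, the floor 4 times higher, the mean of all probes, the deposited score and no day block; 36 with normexp and quantile, 38 with genes well above background on 8 arrays, 93 with a trended robust variance, 14 with array weights, 128 with day as a random block and 19 with slide as a block; and 0 to 3 when 1 day was left out. The day slope called 8920 genes in the report, 0 with slide as a block and 0 to 9863 when 1 day was left out (391 without day 5). At 1.5-fold, 2 member differences of single days passed in place of 1. With slide as a block, slopes turned sign for Id4 (0.24), Smad1 (-0.22), Smad6 (-0.21) and Gdf5 (-0.30); there the slope rests on day 5 against day 4. With 1 day left out, genotype differences ranged from -0.084 to 0.13 for Id1, -0.15 to 0.62 for Id4 and -0.068 to 0.21 for Smad6, each lowest without day 2. Slopes ranged from -0.080 to 0.021 for Id1, -0.54 to 0.11 for Id2, -0.076 to 0.22 for Smad1, -0.11 to 0.43 for Smad6, -0.085 to 0.019 for Atoh8 and -0.047 to 0.76 for Gdf5, each with its opposite sign without day 2. The cause of these turns was not tested. Id3 passed the slope threshold under 6 of 14 alternatives. The genotype test already pairs the arrays of a day, and no pairing by replicate number was added, since the labels give none. With normexp (offset 50) the Smad9 mean was 0.08 in place of 0.43, and that of Gdf5 1.74 in place of 2.41.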
